A study of Mus musculus with 8 samples.

Results

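The Myc, Max and Mxd network was examined as 9 genes, Myc, Mycn, Max, Mga, Mxd1, Mxd4, Mxi1, Mnt and Mlx, chosen by symbol from the 24421 genes of the deposited count tables. All 9 were listed in every table. R1 cells, an established line of mouse embryonic stem cells, were sequenced in the undifferentiated state (Undiff), grown in mES growth medium, and as embryoid bodies formed without Lif and then treated for 4 days with retinoic acid (Day4). Retinoic acid (RA) induces differentiation, and its dose is given as 2 µM in the series' design text, whereas a treatment label writes the same figure in mM. Poly(A) RNA was read on Oxford Nanopore (ONT) flow cells with the Direct RNA kit, which reads the native strand (500 ng of input), and with the cDNA kit, which reads a PCR-amplified copy (50 ng of input). Every combination of state and kit had 2 replicates, so there were 8 libraries in 4 groups, all from this single line and with no genetic change in any group. The labels call all of them embryoid bodies, although the protocols describe Undiff as cells in stem cell medium.

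Myc and Mycn are transcription factors that activate genes of growth and ribosome production, and they bind DNA as heterodimers with Max at the E-box. The Mxd proteins, Mxi1 and Mnt compete for the same partner and recruit the Sin3 and histone deacetylase co-repressors to the same sites. Mga is a large Max partner that sits in a variant Polycomb complex (PRC1.6) and keeps germline genes silent in embryonic stem cells, and Mlx links part of the network to the glucose-responsive Mondo factors. Mycn and Myc are known for sustaining self-renewal and proliferation of these cells, and the Mxd genes for rising as cells leave the cell cycle.

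Total reads on genes ranged from 283461 to 907489 in ONT Direct RNA and from 948657 to 2088592 in ONT cDNA. Levels are given as CPM, reads per 1e6 reads on genes, and 3 reads, taken as the floor of detection, corresponded to 1.44 to 10.6 CPM depending on the library. Log2 fold changes come from DESeq2, which uses its own size factors. Relative to that scale, the ratio of Day4 to Undiff in CPM is higher by 0.10 in Direct RNA and by 0.33 in cDNA (log2), and fold changes below are on the DESeq2 scale. Pluripotency markers, summed over 12 genes, stood at 12578 to 14862 CPM in Undiff and 191 to 616 CPM at Day4 in Direct RNA, and at 21620 to 24757 and 108 to 982 CPM in cDNA. On both platforms 11 of the 12 were called lower at Day4, beside 7.67% of all genes in Direct RNA and 9.24% in cDNA. The early endoderm factor Gata6 and the transport protein gene Ttr had 0 reads in every Undiff library. Endoderm and fibroblast markers were present at Day4, as described beside the network genes.

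Promoter sequences bear on this network because its own members are bound through a short DNA word. The RefSeq set (GRCm38.p6) held windows from 250 bases before to 50 bases after the start for 8 of the 9 genes, in 10 windows, and Myc was the gene without one. The canonical E-box, CACGTG, which reads the same on both strands, was found in 4 of the 10 windows and in 7.15% of all 32851 windows of the same length. These 4 sites are shown with 20 flanking bases on each side, 5′ to 3′ on the strand of the gene, with the E-box in capitals.
Max, chr12:76962226-76962271 (minus strand), first E-box base at -3 from the start: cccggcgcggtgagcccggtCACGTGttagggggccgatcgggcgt
Mlx, chr11:101087230-101087275 (plus strand), first E-box base at -40: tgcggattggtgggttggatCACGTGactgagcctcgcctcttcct
Mnt, chr11:74830781-74830826 (plus strand), first E-box base at -123: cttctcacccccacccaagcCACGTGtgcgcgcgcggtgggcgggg
Mxd4, chr5:34187904-34187949 (minus strand), first E-box base at -219: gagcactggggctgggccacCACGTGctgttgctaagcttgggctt
Of these 4 genes, Max was called lower and Mxd4 higher at Day4 in Direct RNA, and none was called in cDNA. Mlx and Mnt passed the test on neither platform, as given below.

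A second word was searched because E2F factors, which drive genes of the S phase, are known regulators of Mycn. The words TTTCGCGC and TTTGGCGC were searched on both strands, and the 2 words can overlap. Of the network windows, that of Mycn held 3 matches, 1 of the first word on the opposite strand and the other two of the second word, and no other network window held any. A match to either word was present in 0.813% of all windows, and 3 or more matches in 0.006% (2 windows). The matches are in capitals, and the first of them overlap.
Mycn, chr12:12941977-12942039 (minus strand), first match at -183 from the start: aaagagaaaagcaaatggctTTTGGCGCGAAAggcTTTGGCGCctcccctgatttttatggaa
The word AGGTCA repeated after a gap of 5 bases, which retinoic acid receptors bind, was searched on both strands and was in none of the network windows and in 0.009% of all windows. These are matches of letters alone, and no binding was measured.

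The first comparison asked how each gene changed from Undiff to Day4 within a platform. A gene was taken as differentially expressed (a DEG) when its adjusted p-value did not exceed 0.05, its log2 fold change was 1 or more in either direction, and its mean count was 5 or more. In Direct RNA 8 of the 9 genes reached this mean and 2 were DEGs, Max lower and Mxd4 higher. In cDNA 8 reached it and 1 was a DEG, Mycn, which was lower. Over all genes with that mean, 17.2% were DEGs in Direct RNA (7.67% lower, 9.54% higher at Day4) and 17.9% in cDNA (9.24% lower, 8.69% higher), and with 2 of 8 and 1 of 8 genes the network stood near these shares. The network genes with that mean had a median log2 fold change of -0.62 in Direct RNA, where the median of all genes was 0.03, and of -0.85 in cDNA, where it was 0.00. As these were bulk samples, fewer cells of a type and less RNA per cell cannot be told apart.

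**Figure D1:**
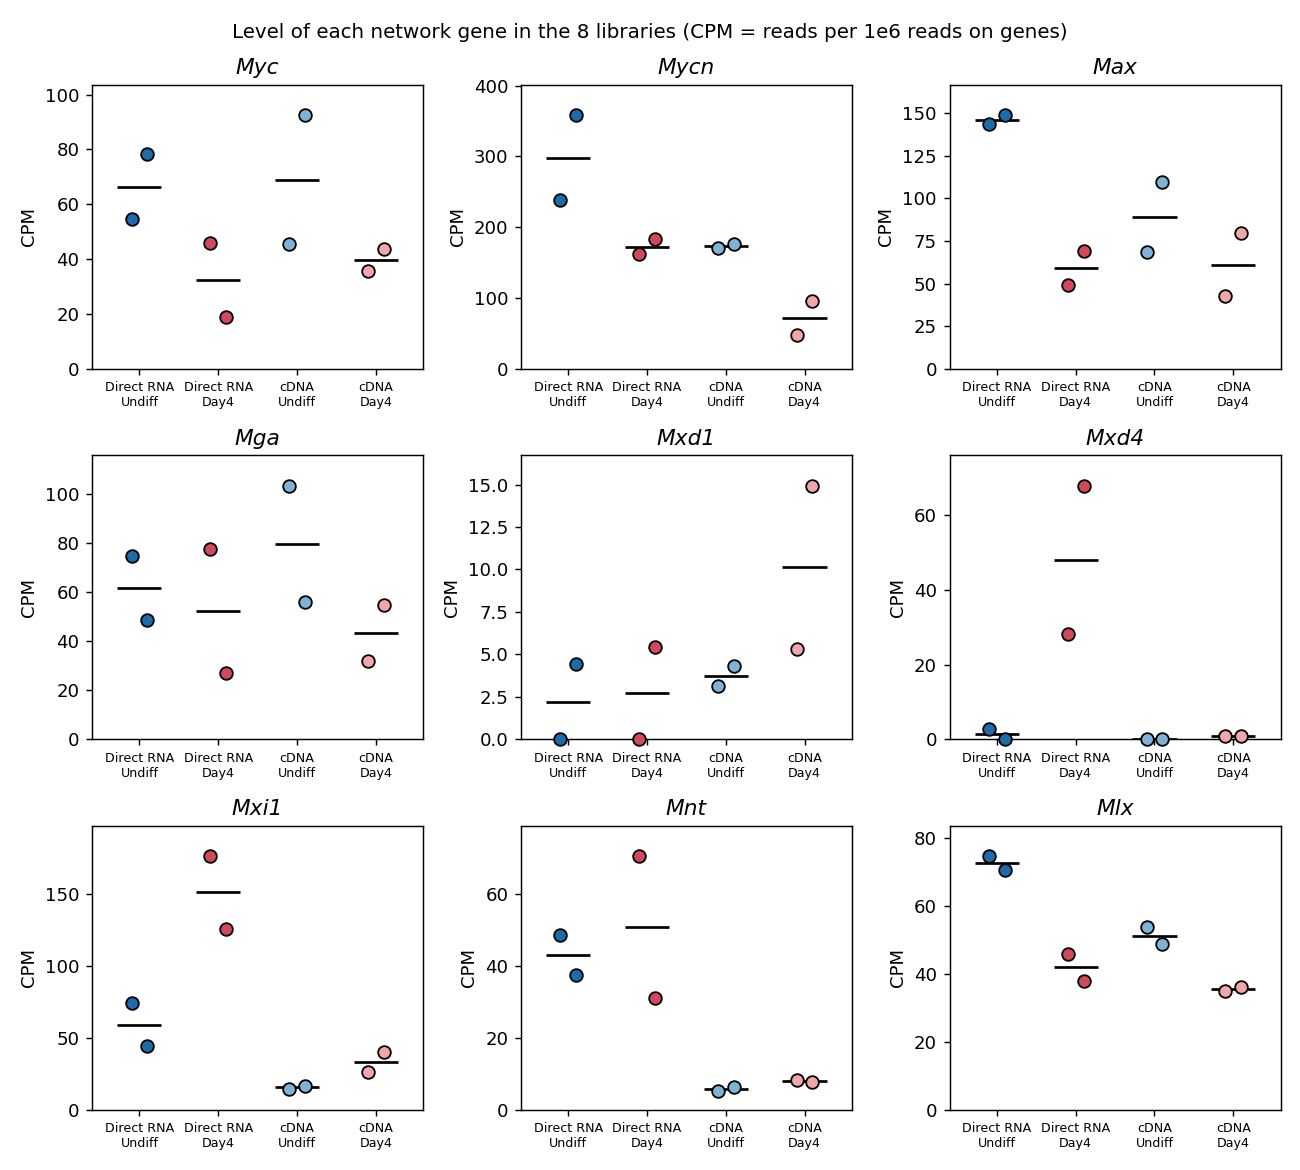
Level of each network gene in CPM (vertical axis, linear from 0) in the 4 groups on the horizontal axis. Points are single libraries, replicate 1 to the left, and the line is the mean of 2. Myc, Mycn and Mlx lie lower and Mxi1 higher in both Day4 libraries than in both Undiff libraries on each platform, and Mxd4 is near 0 outside Direct RNA Day4.

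Mycn (12:12936093-12941914, minus strand), the Myc family member of many embryonic and neural tissues, was the gene with the highest mean CPM of the network in all 4 groups. In Direct RNA it was read at 238 and 358 CPM in Undiff and 162 and 183 CPM at Day4. In cDNA it was at 171 and 176 CPM in Undiff and 47.0 and 96.3 CPM at Day4. Both Day4 libraries lay below both Undiff libraries on each platform. The log2 fold change was -1.59 ± 0.45 (SE, adjusted p = 0.0055) in cDNA and -0.89 ± 0.38 (adjusted p = 0.12) in Direct RNA, so the gene was a DEG in cDNA alone. The difference between these 2 changes was tested by the interaction described below and was not called. The cDNA call was lost without Undiff replicate 1 (adjusted p = 0.089), Undiff replicate 2 (0.12) or Day4 replicate 1 (0.35), with the log2 fold change between -1.17 and -1.99 over the libraries left out.

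Myc (15:61985391-61990374, plus strand), the founding member and a growth regulator in most dividing cells, was read at 54.5 and 78.2 CPM in Direct RNA Undiff and 45.9 and 19.0 CPM at Day4. In cDNA its levels were 45.3 and 92.4 CPM in Undiff and 35.7 and 43.8 CPM at Day4. The groups did not overlap on either platform, but in each of them the Undiff replicate nearest to Day4 was within 10 CPM of it. The log2 fold change was -1.18 ± 0.66 (adjusted p = 0.32) in Direct RNA and -1.08 ± 0.52 (adjusted p = 0.19) in cDNA, and neither passed the test. edgeR's quasi-likelihood test called Myc lower in Direct RNA (log2 fold change -1.37, adjusted p = 0.013).

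The balance of both factors can be read within a library, where no scaling enters. Mycn made up 81.4% of the Myc and Mycn reads in Direct RNA Undiff replicate 1 (83 of 102 reads, Wilson 95% interval 72.7 to 87.7%) and 82.1% in replicate 2 (325 of 396, 78.0 to 85.5%). At Day4 the shares were 78.0% (46 of 59, 65.9 to 86.6%) and 90.6% (135 of 149, 84.8 to 94.3%). In cDNA they were 79.0% (162 of 205, 72.9 to 84.0%) and 65.6% (368 of 561, 61.6 to 69.4%) in Undiff, and 56.9% (62 of 109, 47.5 to 65.8%) and 68.7% (200 of 291, 63.2 to 73.8%) at Day4. Mycn held the larger share in each of the 8 libraries, although the lowest interval reached below 50%. Undiff and Day4 overlapped on both platforms, so no change of the balance between states was seen beyond the spread of the replicates. Intervals cover counting error only and leave out variation between libraries. In cDNA they may be too narrow even for that, because PCR copies are not independent molecules.

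Max (12:76937269-76962201, minus strand), the obligate partner, was read at 143 and 149 CPM in Direct RNA Undiff and at 49.4 and 69.1 CPM at Day4. In cDNA it was at 68.5 and 110 CPM in Undiff and 42.5 and 79.9 CPM at Day4, where the groups overlapped in CPM but not after scaling by size factors. The log2 fold change was -1.34 ± 0.48 (adjusted p = 0.049) in Direct RNA, a DEG just inside the threshold, and -0.86 ± 0.48 (adjusted p = 0.32) in cDNA. The Direct RNA call was lost with edgeR's TMM factors in the same fit (adjusted p = 0.055), without shrinkage (0.0502) and without any one of the 4 libraries (0.28 to 0.75). edgeR kept it (adjusted p = 0.0025).

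Mga (2:119897228-119969581, plus strand) did not pass the test on either platform. Its Direct RNA levels were 74.6 and 48.5 CPM in Undiff and 77.6 and 27.1 CPM at Day4, and these groups overlapped. In cDNA the levels were 103 and 56.0 CPM in Undiff and 31.9 and 54.9 CPM at Day4, where the closest libraries differed by about 1 CPM. The log2 fold changes were -0.36 ± 0.64 (adjusted p = 0.90) and -1.19 ± 0.52 (adjusted p = 0.14), and edgeR called the second (-1.17, adjusted p = 0.039).

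Mxd4 (5:34173883-34187720, minus strand), a Max partner of quiescent and differentiated cells, showed the largest change of the network in Direct RNA. It had 1 and 0 reads in the Undiff libraries, or 2.87 and 0 CPM, and 8 and 50 reads at Day4, or 28.2 and 67.8 CPM. Both Day4 libraries were above their floors of 10.6 and 4.07 CPM, and both Undiff libraries were below theirs. Pooled over replicates, 58 reads at Day4 against 1 in Undiff gave a ratio of 71.3 with a 95% counting interval of 12.3 to 2866, and Day4 stood 23.8-fold above the pooled floor of 3 reads in Undiff. The fitted log2 fold change was 4.41 ± 1.11 (adjusted p = 0.0014). This call was lost without Undiff replicate 2 (log2 fold change 2.97) or Day4 replicate 2 (2.67), the deeper library of each pair. In cDNA Mxd4 had 0 and 0 reads in Undiff and 1 and 2 at Day4, all below the floor, so that a change of its level was not detectable there.

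Mxi1 (19:53310518-53375810, plus strand), another competitor for Max, was higher in both Day4 libraries than in both Undiff libraries on each platform without passing the test. In Direct RNA it was at 74.6 and 44.1 CPM in Undiff and 176 and 126 CPM at Day4. In cDNA it was at 14.8 and 16.3 CPM in Undiff and 26.6 and 40.4 CPM at Day4. The log2 fold changes were 1.24 ± 0.49 (adjusted p = 0.088) and 0.74 ± 0.62 (adjusted p = 0.62). The Direct RNA change was called by edgeR (1.29, adjusted p = 0.0048) and when genes with fewer than 10 reads in any library were left out (1.27, adjusted p = 0.019).

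Mxd1 (6:86647042-86669161, minus strand), which is induced when many cell types mature, was at the edge of detection. Direct RNA gave 0 and 4 reads in Undiff and 0 and 4 at Day4, and its mean count was under 5. In cDNA there were 3 and 9 reads in Undiff, or 3.16 and 4.31 CPM, and 7 and 31 at Day4, or 5.31 and 14.9 CPM. The cDNA groups did not overlap, with a log2 fold change of 0.95 ± 1.00 (adjusted p = 0.75). Mnt (11:74830920-74845725, plus strand), the broadly expressed antagonist of Myc, was at 48.8 and 37.5 CPM in Direct RNA Undiff and 70.6 and 31.2 CPM at Day4. In cDNA it was at 5.27 and 6.22 CPM in Undiff and 8.34 and 7.70 CPM at Day4, and the separation in CPM was lost after scaling by size factors. Its log2 fold changes were 0.09 ± 0.66 and 0.14 ± 0.94 (adjusted p = 0.97 and 0.96), and the 95% intervals of the fold changes without shrinkage (0.09 and 0.16) ran from -1.28 to 1.47 and from -1.90 to 2.22.

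Mlx (11:101087277-101092207, plus strand), the Max-like partner of the Mondo factors, had close replicates in each group. It was at 74.6 and 70.5 CPM in Direct RNA Undiff and 45.9 and 38.0 CPM at Day4, and at 53.8 and 48.8 CPM in cDNA Undiff and 34.9 and 36.1 CPM at Day4. The groups did not overlap on either platform. The log2 fold changes were -0.87 ± 0.59 (adjusted p = 0.46) and -0.83 ± 0.51 (adjusted p = 0.39), and neither passed the test. Exons of Mlx share 385 bases, 19.3% of its exonic bases, with Psmc3ip on the opposite strand, and for cDNA the strand setting of the counting is not stated, so reads of this pair may not be separable there.

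After scaling by size factors, both Day4 libraries lay below both Undiff libraries for 4 of the 8 genes with the minimum mean in Direct RNA (Myc, Mycn, Max, Mlx), against 33.5% of all such genes, and above them for 2 (Mxd4, Mxi1), against 34.3%. In cDNA they lay below for 5 (Myc, Mycn, Max, Mga, Mlx), against 32.3%, and above for 2 (Mxd1, Mxi1), against 34.7%. Myc, Mycn, Max and Mlx were on the lower side on both platforms and Mxi1 on the higher side on both. With 2 libraries a group, no exact permutation test of a single gene can reach 0.05.

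**Figure D2:**
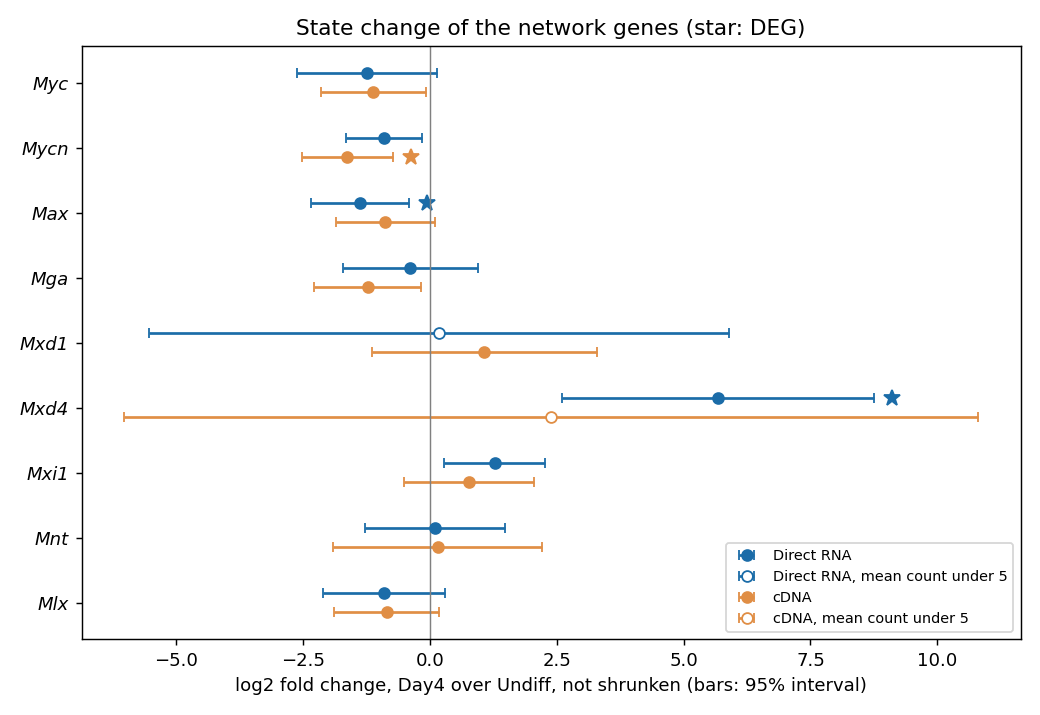
Log2 fold change of each network gene from Undiff to Day4, not shrunken (horizontal axis), with 95% intervals, for Direct RNA and cDNA. Stars mark DEGs and open symbols a mean count under 5. The intervals of Mycn in cDNA, and of Max and Mxd4 in Direct RNA, lie away from 0 and belong to DEGs. Those of Mycn and Mxi1 in Direct RNA and of Myc and Mga in cDNA also lie away from 0 without a DEG call, and those of Mxd1 in Direct RNA and Mxd4 in cDNA are the widest.

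The activators and their antagonists were also compared within each library, as the share of Mxd1, Mxd4, Mxi1 and Mnt reads among the reads of these 4 genes plus Myc and Mycn. In Direct RNA this share was 30.1% (44 antagonist reads, 95% interval 23.3 to 38.0%) and 16.5% (78 reads, 13.4 to 20.1%) in Undiff. At Day4 it was 56.9% (78 reads, 48.6 to 64.9%) and 53.3% (170 reads, 47.8 to 58.7%). In cDNA it was 9.69% (22 reads, 6.49 to 14.2%) and 9.08% (56 reads, 7.06 to 11.6%) in Undiff, and 33.1% (54 reads, 26.4 to 40.7%) and 31.4% (133 reads, 27.1 to 35.9%) at Day4. Both Day4 libraries were above both Undiff libraries on each platform. The counting intervals did not overlap between states, but those of the 2 Direct RNA Undiff replicates did not overlap each other either. These intervals therefore leave out the spread between libraries. Mxi1 gave the most antagonist reads in every library, for example 50 of 78 and 93 of 170 in Direct RNA Day4 and 35 of 54 and 84 of 133 in cDNA Day4. The share in cDNA lay below that in Direct RNA in the same state. With 2 libraries a group this share is a description without a test.

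**Figure D3:**
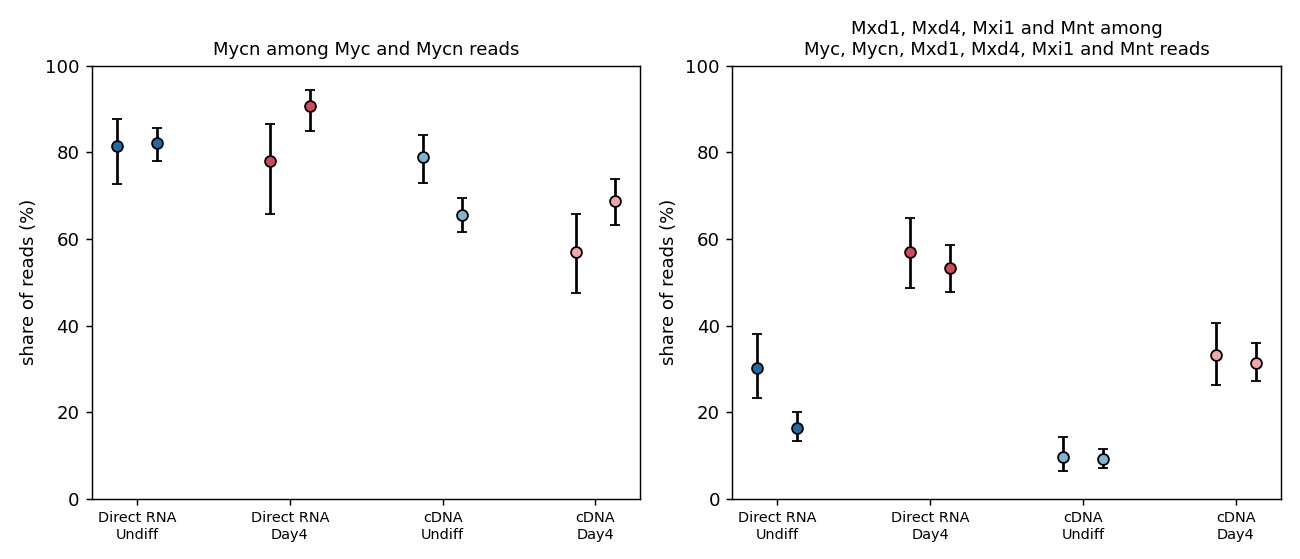
Share of Mycn among Myc and Mycn reads (left) and of Mxd1, Mxd4, Mxi1 and Mnt among the reads of these genes, Myc and Mycn (right), in percent, by group. Points are single libraries and bars are Wilson 95% intervals. The Mycn share overlaps between states, whereas the antagonist share at Day4, 53.3 to 56.9% in Direct RNA and 31.4 to 33.1% in cDNA, lies above Undiff on each platform.

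Markers of other cell types moved with state beside these changes. The 12 endoderm markers summed to 20.1 to 29.8 CPM in Direct RNA Undiff and 738 to 1118 CPM at Day4, and to 12.6 to 14.4 and 301 to 336 CPM in cDNA. Of those with the minimum mean, 6 of 6 were called higher at Day4 in Direct RNA, beside 9.54% of all genes. In cDNA 4 of 7 were, beside 8.69%. Gata6 was among them (log2 fold change 8.13 and 6.83), and 1 of the 7 in cDNA had a negative log2 fold change. In Direct RNA Undiff, Gata6, Afp, Ttr and Apoa1 had no reads. They reached the minimum mean through Day4 alone, as did Gata6 and Ttr in cDNA. These counts were therefore set in part by the filter. The 9 fibroblast markers summed to 40.2 to 68.3 and 653 to 1302 CPM in Direct RNA and to 25.3 to 31.1 and 150 to 223 CPM in cDNA. Of those with the minimum mean, 6 of 6 and 4 of 6 were called higher beside the same shares of all genes. Col1a2 was among them (6.42 and 6.75), and 1 of the 6 in cDNA had a negative log2 fold change. In Direct RNA Undiff, Col1a2, Postn and Pdgfra had no reads. They passed this filter through Day4 alone, as did Col1a2 in cDNA. Of the 12 neural markers, 4 had the minimum mean in Direct RNA. There 1 was called higher and 2 lower, beside 9.54% and 7.67% of all genes. In cDNA 6 had it, with 1 called higher and 3 lower, beside 8.69% and 9.24%. Ncam1 was higher (3.44 and 4.74) and Stmn2 and Tubb3 were lower on both platforms. The 12 genes summed to 649 to 664 CPM in Undiff and 144 to 187 CPM at Day4 in Direct RNA and to 648 to 838 and 647 to 660 CPM in cDNA. Of the mesodermal and endothelial markers with the minimum mean, 2 of 5 were called higher in Direct RNA, beside 9.54% of all genes, and 1 of 5 in cDNA, beside 8.69%, and none lower. Acta2 was higher on both (2.36 and 2.84), and 2 of the 5 had a negative log2 fold change on each platform. The 11 genes summed to 181 to 203 and 305 to 307 CPM in Direct RNA and to 97.0 to 99.1 and 176 to 247 CPM in cDNA. The part of these cell types in the network's values was not tested.

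Compared per kb of the longest annotated transcript, Mycn and Max had the 2 highest means of the network in every group. Mycn stood at 112 ± 31.7 CPM per kb and Max at 75.2 ± 1.92 CPM per kb in Direct RNA Undiff (SD, n = 2). At Direct RNA Day4 they were at 64.6 ± 5.49 and 30.5 ± 7.19 CPM per kb. Mxi1, at 30.0 ± 7.06, did not differ there from Max beyond their spread. In cDNA Undiff Mycn and Max were at 64.9 ± 1.44 and 45.9 ± 15.0 CPM per kb. In cDNA Day4 Max (31.5 ± 13.6 CPM per kb) and Mycn (mean 26.8 CPM per kb) did not differ beyond their spread. Mxd4 was last in Undiff on both platforms and reached 10.4 ± 6.05 CPM per kb in Direct RNA Day4. Its longest transcript is annotated with 1 exon and may not be the one that was read. A nanopore read can span a whole transcript, so that division by length may overcorrect, but Mycn was also first in CPM without it.

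Genes that share partners or targets with the network were read in the same fits. They were taken from lists chosen with earlier results of these data known. Among the relatives, Mycl was at 25.8 and 12.1 CPM in Direct RNA Undiff and 35.3 and 28.5 CPM at Day4, and Mxd3, Mlxip and Mlxipl showed log2 fold changes of -0.21 ± 0.91, 0.14 ± 0.81 and -2.01 ± 1.46, the last from 5 reads in Undiff and 0 at Day4. The minimum mean was reached by 3 of the 4 in Direct RNA and by 1, Mxd3, in cDNA, and none of these was called, while the others could not be called. In cDNA Mycl had 2 reads in Undiff and 5 at Day4 over both replicates, and Mlxip 3 and 11. Of the Sin3 and histone deacetylase co-repressor genes, 15 of 17 had the minimum mean in Direct RNA, where Sin3a, the scaffold bound by Mxd proteins, was called lower (-1.92), and 17 of 17 in cDNA, where Arid4b was called higher (1.88). No other gene of that list passed on either platform, so that 1 of 15 and 1 of 17 were called, beside 17.2% and 17.9% of all genes.

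Of the subunits of the Mga complex with the minimum mean, 3 of 12 were called in Direct RNA (1 higher, 2 lower), beside 17.2% of all genes, and 3 of 11 in cDNA (1 higher, 2 lower), beside 17.9%. Yaf2, a RING-associated subunit, was higher at Day4 on both platforms. Its Direct RNA level was 12.4 ± 1.23 CPM in Undiff and 182 ± 16.4 CPM at Day4 (log2 fold change 3.58, adjusted p = 3.03e-08), and its cDNA level was 7.09 ± 1.90 and 98.0 ± 3.07 CPM (3.39, adjusted p = 3.80e-07). L3mbtl2, a chromatin reader of the complex, was lower on both, at 172 ± 8.53 and 13.8 ± 0.39 CPM in Direct RNA (-3.60, adjusted p = 4.45e-08), and by a log2 fold change of -2.86 ± 0.76 in cDNA (adjusted p = 0.0029). Wdr5 was also lower in Direct RNA (-1.73) and Pcgf6, the subunit that defines the complex, in cDNA (-1.79). Among 16 germline genes known as targets of the complex, 5 had the minimum mean in Direct RNA and 10 in cDNA. Ddx4 (-3.77) was called lower in Direct RNA and Hormad1 (-3.26) in cDNA, which is 1 of 5 beside 7.67% of all genes and 1 of 10 beside 9.24%, and none was called higher. Their summed level was 116 to 264 CPM in Undiff and 45.9 to 66.4 CPM at Day4 in Direct RNA, and 74.2 to 95.9 and 41.0 to 59.7 CPM in cDNA.

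Of the cofactor genes of Myc with the minimum mean, 1 of 13 was called in Direct RNA and 2 of 15 in cDNA, and of the factors that control its turnover 2 of 11 and 3 of 11, beside 17.2% and 17.9% of all genes. Among the cofactors, Actl6a, an actin-related subunit of the chromatin remodellers that Myc recruits, was lower on both platforms (-1.31 ± 0.38 and -1.19 ± 0.38, adjusted p = 0.0092 and 0.021), and Ruvbl2 was lower in cDNA (-1.12, adjusted p = 0.027). Among the turnover genes, the deubiquitinase Usp28, which stabilises Myc, was lower on both, with Direct RNA levels of 200 ± 58.3 CPM in Undiff and 35.8 ± 10.7 CPM at Day4 (-2.43 ± 0.49, adjusted p = 3.4e-05), and by -2.62 ± 0.61 in cDNA (adjusted p = 4.4e-04). Aurka, a mitotic kinase that protects the Mycn protein from degradation, was lower on both as well, by a log2 fold change of -1.28 ± 0.40 (adjusted p = 0.016) and -1.30 ± 0.40 (adjusted p = 0.015). Gsk3b, a kinase that marks Myc for degradation, was higher in cDNA (1.55, adjusted p = 0.0031). In Direct RNA it did not pass the test and had the opposite sign (-0.26, adjusted p = 0.74).

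Growth-related target genes of Myc were next counted. The list holds 32 genes of nucleolar assembly, ribosome production, nucleotide and polyamine synthesis, translation and the cell cycle, of which 31 had the minimum mean on each platform. In Direct RNA 19 were called lower and 1 higher at Day4, beside the 7.67% of all genes called lower there. In cDNA 11 were called lower and 1 higher, beside 9.24%. On both platforms 9 were called lower and 1 higher, and no share of all genes called on both is given beside this count. The list had a median log2 fold change of -1.08 in Direct RNA, where all genes had 0.03, and of -1.18 in cDNA, where they had 0.00. Their summed level was 24246 to 25515 CPM in Undiff and 14626 to 15113 CPM at Day4 in Direct RNA, and 27095 to 27762 and 19572 to 21466 CPM in cDNA. Leaving out any 1 library left a group with 1 library, and fewer genes of the list were then called lower on each platform. Over all genes, fewer were called lower as well in each of these fits, so the loss was not particular to this list.

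Rrp9, a component of the small nucleolar particle that processes ribosomal RNA, was at 274 ± 22.3 CPM in Direct RNA Undiff and 35.7 ± 20.5 CPM at Day4 (log2 fold change -2.86 ± 0.47, adjusted p = 9.34e-08), and was lower in cDNA as well (-2.63 ± 0.45). The nucleolar helicase Ddx21 was at 373 ± 41.0 CPM in Direct RNA Undiff and 78.4 ± 43.8 CPM at Day4, with log2 fold changes of -2.38 ± 0.42 there and -2.85 ± 0.43 in cDNA. Eif4a1, the helicase of translation initiation, had log2 fold changes of -1.36 ± 0.38 and -2.90 ± 0.54, with a wide spread in cDNA Undiff (1035 ± 856 CPM). The gene of the list called higher on both platforms was Ccnd2, the G1 cyclin D2, at 9.93 ± 6.25 and 93.3 ± 2.25 CPM in Direct RNA (3.08 ± 0.71, adjusted p = 4.0e-04) and 10.4 ± 3.19 and 310 ± 127 CPM in cDNA (4.47 ± 0.51). The other 6 genes called lower on both, named after their values were seen, were Ncl, Nme2, Bop1, Gnl3, Shmt1 and Nolc1. The E-box was present in 25.0% of the 32 windows available for this list (7 of 26 genes). For the Mondo and Mlx targets Txnip and Arrdc4 no change passed the test, with log2 fold changes of 0.13 and -0.38 in Direct RNA, and of -0.20 and -1.18 in cDNA.

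**Figure D4:**
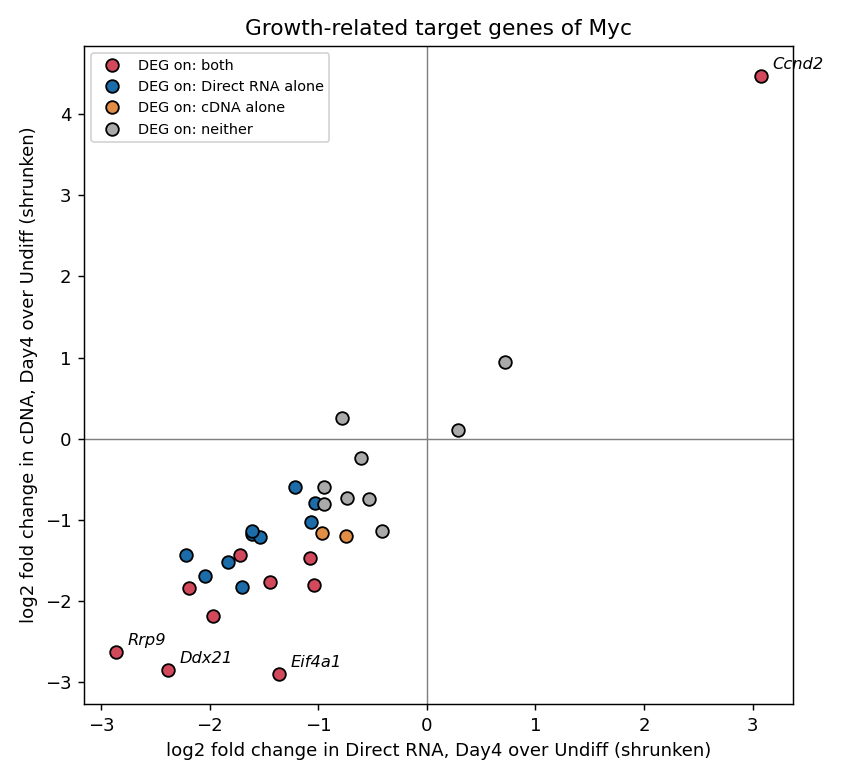
Log2 fold change from Undiff to Day4 of growth-related Myc target genes in Direct RNA (horizontal axis) and cDNA (vertical axis), shrunken, for the 31 genes with a mean count of at least 5. Colours show on which platform a gene was a DEG. Most points lie at the lower left, Rrp9, Ddx21 and Eif4a1 lie lowest, and Ccnd2 stands alone at the upper right (3.08 and 4.47).

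The second comparison asked whether the change from Undiff to Day4 differed between kits. In the interaction test over all 8 libraries no network gene was called, against 0.0116% of all genes tested (2 of 17267), and edgeR called none of them either. No network gene had an unadjusted p below 0.05, and the smallest was that of Mycn (0.20), whose change was lower in cDNA by 0.75 on the log2 scale (cDNA minus Direct RNA -0.75, 95% interval -1.90 to 0.40). The interval for Max ran from -0.82 to 1.77, for Myc from -1.44 to 1.76, for Mxi1 from -1.99 to 0.97 and for Mlx from -1.41 to 1.49. These intervals leave room for differences of more than 1 log2 unit. For Mxd4 the interval was -8.36 to 1.81, with nearly all of its reads in a single group.

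The third comparison asked which network genes were read at different levels by the kits, over both states. Here 51.3% of all genes with the minimum mean were called, so a call was common, and 3 of the 8 network genes with that mean were called. All 3 were antagonists and were lower in cDNA, Mxd4 by -3.77 ± 0.84 (log2, adjusted p = 4.6e-05), Mnt by -1.93 ± 0.41 (adjusted p = 2.0e-05) and Mxi1 by -1.29 ± 0.30 (adjusted p = 8.7e-05). In reads, Mxi1 had 26 to 93 in the Direct RNA libraries and 14 to 84 in the 4 cDNA libraries, although cDNA libraries held more reads in total. Mnt had 17 to 34 in Direct RNA and 5 to 16 in cDNA. Mxd4 had 8 and 50 reads in Direct RNA Day4 and 0 to 2 in every other library. Its call therefore rests on that group, and a kit difference in Undiff could not be seen. The Mxd4 call was lost without Direct RNA Day4 replicate 2 (-2.57, adjusted p = 0.055).

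Myc was higher in cDNA, by 0.93 ± 0.33 (adjusted p = 0.017), just under the size threshold, and edgeR called it (1.02, adjusted p = 0.0035). Mga (0.86 ± 0.40, adjusted p = 0.082), Mycn (-0.28 ± 0.28), Max (0.35 ± 0.27) and Mlx (0.38 ± 0.27) did not pass the test, and the 95% interval for Mycn, without shrinkage (-0.29), was -0.84 to 0.26. Mxd1 (1.52 ± 0.78) had a mean count of 4.41, below the minimum. Among the relatives, Mycl (-3.51 ± 0.66) and Mlxip (-2.70 ± 0.57) were also called lower in cDNA, and Mxd3 (0.89 ± 0.49) was not. The longest annotated transcripts of the genes called lower in cDNA were 3501 (Mycl), 4590 (Mnt), 4627 (Mxd4), 5036 (Mxi1) and 7303 bases (Mlxip), and those of Myc, Mycn, Max, Mlx and Mxd3 ran from 1742 to 2674 bases. Mga (13931 bases) and Mxd1 (4666 bases) did not follow this order. The longest transcript of Mxd4 is annotated with 1 exon and may not be the one that was read. CPM ratios between kits are lower for cDNA by 0.75 (log2) than the DESeq2 scale used for these fold changes.

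**Figure D5:**
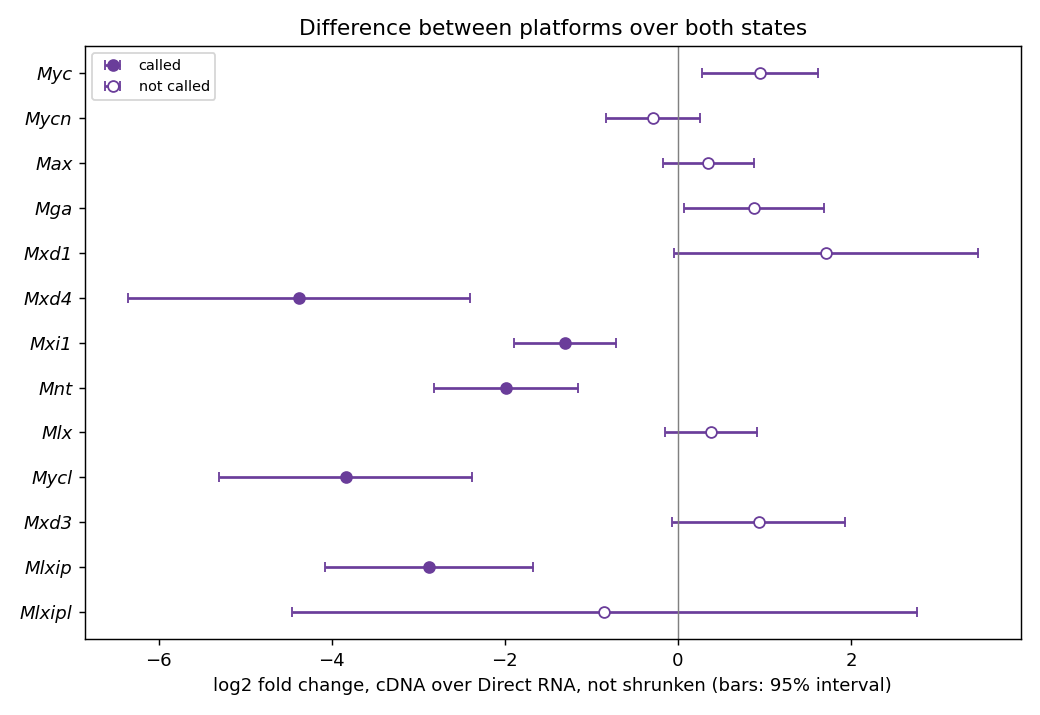
Log2 fold change of cDNA over Direct RNA over both states, not shrunken (horizontal axis), with 95% intervals, for the 9 network genes and 4 relatives. Filled symbols mark called genes. Mxd4, Mxi1, Mnt, Mycl and Mlxip lie to the left, and Myc, Mga and Mxd1 to the right without being called.

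For the network genes called on a platform, the genes with the most similar levels over the 8 libraries (Pearson r of log2 CPM + 1) were listed as a description, since libraries share state, kit and depth. They were Plekha7 (0.98), Stk4 (0.98) and Gltp (0.98) for Mycn, Srrm1 (0.98), Gnl2 (0.98) and Fbxo2 (0.98) for Max, and P3h3 (0.98), Tctn2 (0.97) and Thra (0.97), a thyroid hormone receptor gene, for Mxd4.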

How the data were processed

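The authors deposited raw counts per gene symbol, made by htseq-count from minimap2 alignments to mm10 (UCSC annotation), with no secondary alignments. Direct RNA was counted by strand, and for cDNA the strand setting is not given in the sources used here. The 5 counters of unassigned reads, which held 38.1 to 61.7% of all counted reads, entered no library size or test. DESeq2 1.42.0 (R 4.3.3) was run with the study's settings, namely the Wald test, shrunken log2 fold changes, and neither a Cook's cutoff nor independent filtering, separately per platform, over all genes with Benjamini-Hochberg adjustment. The interaction used all 8 libraries without shrinkage and the adjusted p-value alone, and the kit comparison had state as covariate. Values after ± are SE for fold changes and SD for levels. edgeR 4.0.16 (quasi-likelihood test), TMM factors, a filter of 10 reads, blocks and left-out libraries were alternatives, and the tests were checked on simulated data. The study grew its replicates separately. Replicates of a group differed by more than sampling noise (chi-square per degree of freedom 2.68 to 14.9). Named were the 9 genes and 4 relatives and, per list, up to 4 genes with the largest change among those called alike on both platforms. Some other list members called on 1 platform are named as well, chosen after their values were seen. The 9 genes and the lists were chosen with earlier results of these data known. Gene positions are from GENCODE M21 (GRCm38). Separation of groups after size factors was added after seeing the data. Authors' comparison columns and short-read libraries were not used.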

Additional observations from a re-analysis of the deposited data

How the results depend on the processing

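Over 9 genes and every alternative run, the sign of the log2 fold change was kept in 74 of 79 cases in Direct RNA, in 78 of 78 in cDNA, in 104 of 114 for the interaction and in 121 of 123 between kits. A library left alone in its group was assumed to vary like the other group, and a gene under the filter of 10 reads gave no value there. The cause of the shifts was not tested. Mxd1 in Direct RNA and Mxd4 in cDNA had counts near or under 3 reads, and no change of theirs could be seen there.

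Of the network genes, 2 were called in Direct RNA, against 4 with edgeR, 1 with TMM factors, 1 with no shrinkage and 0 to 1 with a library left out. In cDNA 1 was called, against 2 with edgeR and 0 to 1 with a library left out. Between kits 3 were called, against 1 with the filter of 10 reads (Mxi1) and 2 to 5 with a library left out, and the filter turned the sign of Max (-0.047) and Mlx (-0.018). Over all genes, 1660 were called in Direct RNA, against 3257 with edgeR, 723 with the filter and 393 to 797 with a library left out. In cDNA 1842 were called, against 3348, 989 and 709 to 1020. The interaction called 2 genes, against 14 with edgeR, 1 with TMM factors, 1 with the filter and 0 to 13 with a library left out, and the kit comparison 5344, against 1674 with the filter. Of the 32 Myc targets, 11 were called lower in cDNA, against 20 with edgeR. With a library left out the number called lower was 6 to 12 in Direct RNA and 3 to 10 in cDNA.

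With a library left out, these signs turned. In Direct RNA the log2 fold change was -1.06 to 0.22 for Mga, -0.42 to 0.55 for Mxd1 and -0.42 to 0.55 for Mnt. In the interaction it was -0.40 to 0.81 for Myc, -1.50 to 3.23 for Mxd1, -0.43 to 0.69 for Mnt and -0.18 to 0.21 for Mlx.

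Replicates with 1 number deviated together with r = 0.21 between states in Direct RNA, 0.50 in cDNA, 0.12 between kits in Undiff and -0.42 between kits at Day4, and with 2 pairs this does not establish a pairing of states. With the number as a replicate block, 1 network gene (Mxd4) and 843 genes in all were called in Direct RNA, where Max was not (log2 fold change -1.33, adjusted p = 0.25), and 1 (Mycn) and 1375 in cDNA. With each culture as a block, 2 genes were called in the interaction and 5049 between kits. The block with crossed Day4 numbers, chosen after seeing the data, called 1 and 5081, with no network gene and 3 network genes among them.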
